A study of Homo sapiens with 8 samples.

Results

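The serpins are a family of proteins named as serine protease inhibitors. The family was taken here as every protein-coding gene whose symbol starts with SERPIN, which gave 34 genes of the 63241 listed in each expression file: 10 of clade A, 13 of clade B, 3 of clade E, 2 each of clades F and I, and 1 each of clades C, D, G and H. A further 9 genes with a SERPIN symbol were pseudogenes or non-coding and were left out. Serpins with another kind of symbol, such as AGT (angiotensinogen, also SERPINA8), were not taken, and serpins below means the 34. Poly(A) RNA-seq was carried out on HepG2 and Huh7, both established human liver cancer cell lines, as wild-type (WT) cells labelled control and as sorafenib-resistant (SR) cells labelled sorafenib. SR cells had been raised by exposure to rising sorafenib concentrations, sorafenib being a kinase inhibitor used against liver cancer, so that resistance and the drug label go together and cannot be told apart. There were 2 libraries in each of the 4 groups, WT and SR of each line, all given the same batch label. The labels do not say whether the 2 libraries of a group came from separate cultures, and p-values measure only the spread between these samples, which may be technical.

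An inhibitory serpin offers an exposed reactive loop as bait to a protease. When the loop is cut the serpin changes shape, traps the protease in a covalent complex, and is itself spent. The liver secretes many clade A, C, D and F serpins into plasma, where they restrain clotting, fibrinolysis and tissue proteases or carry hormones, whereas clade B serpins lack a classical signal peptide and act mainly inside cells. A few members inhibit no protease, among them the collagen chaperone SERPINH1 (HSP47) and the hormone carriers SERPINA6 and SERPINA7.

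Promoter sequences are shown for SERPINB8, the member that separated all SR from all WT libraries. SERPINB9 and SERPINA7 are shown as the other tested members with the letters TATAAA. Each run is the 250 bases before the RefSeq transcript start on GRCh38.p14, 5′ to 3′ on the strand of the gene. Capitals mark the motif words, the AP-1-type word TGANTCA (its own reverse complement) in SERPINB8, and the TATA box TATAAA or its reverse complement TTTATA in the others.
SERPINB8 (chr18:63969831-63970080, plus strand): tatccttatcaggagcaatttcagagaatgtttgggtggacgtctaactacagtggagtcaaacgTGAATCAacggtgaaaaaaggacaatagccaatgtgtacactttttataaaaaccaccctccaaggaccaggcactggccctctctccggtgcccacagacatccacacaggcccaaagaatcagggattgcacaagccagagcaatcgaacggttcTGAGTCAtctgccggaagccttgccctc
SERPINB9 (chr6:2903310-2903559, minus strand): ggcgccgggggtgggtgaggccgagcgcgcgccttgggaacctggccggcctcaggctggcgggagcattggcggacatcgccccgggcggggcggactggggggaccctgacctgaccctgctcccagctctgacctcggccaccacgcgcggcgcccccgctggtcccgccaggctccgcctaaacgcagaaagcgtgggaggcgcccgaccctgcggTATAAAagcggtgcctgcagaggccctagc
SERPINA7 (chrX:106038728-106038977, minus strand): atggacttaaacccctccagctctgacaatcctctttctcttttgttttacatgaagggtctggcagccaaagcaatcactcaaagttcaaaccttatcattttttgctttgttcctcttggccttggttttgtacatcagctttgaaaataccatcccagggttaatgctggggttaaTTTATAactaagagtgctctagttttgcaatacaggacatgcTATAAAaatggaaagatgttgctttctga

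Of the 34 serpins, 27 matched a RefSeq promoter. On either strand, TGANTCA was held by 6.57% of all 35116 promoters of this length. Serpins were counted as genes: 0 of the 9 clade A genes that passed the expression filter held it. It was held by 6 of the 11 clade B genes that matched, whether or not they passed the filter. SERPINB8, with 2 copies, was the only 1 of those 6 that passed. TATAAA was held by 10.7% of all promoters and by 7 serpins, of which 5 were of clade B. SERPINA7 was the only 1 of the 9 clade A genes with it. Such a match is a description of the letters and was not tested for binding.

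Before the serpins are compared, 3 libraries have to be set apart. Over all genes tested, both HepG2 WT libraries, replicate 1 of HepG2 SR and replicate 2 of either Huh7 group correlated with each other at r = 0.914 to 0.977 on the log2 scale. The replicate 1 libraries of the Huh7 groups correlated with each other at 0.965 and with those 5 libraries at 0.731 to 0.783. HepG2 SR replicate 2 correlated with the 5 at 0.775 to 0.819 and with the other 2 at 0.815 to 0.846. The expression of these libraries therefore did not divide by the labelled cell line, and values are given below with and without the 3. ALB, the main plasma protein of hepatocytes, was listed above 11 FPKM in all 8 libraries but spanned 11.98 in Huh7 WT replicate 1 to 4713 in HepG2 SR replicate 2. Of the 12 hepatocyte markers, the fibrinogen genes FGA, FGB and FGG were higher in all of the 3 libraries than in the other 5, with FGG at 730 to 1047 against 3.20 to 126 FPKM, APOA2 was lower, and the other 8, ALB among them, overlapped. Of 7 epithelial markers, KRT19, KRT80 and EPCAM were lower in the 3, CD24 was higher, and the other 3 overlapped. The keratin KRT19 was at 155 to 760 FPKM in the 5 libraries and at 0.179 to 2.37 in the 3, and CD24 was at 3.67 to 9.71 and at 266 to 325. VIM, an intermediate filament of mesenchymal cells, was at 536 FPKM in HepG2 SR replicate 2 and at 0.211 to 7.02 elsewhere. The leukocyte marker PTPRC did not exceed 0.026 FPKM in any library, and summed levels were 4.27 to 29.4 FPKM for 6 blood cell markers and 0.772 to 4.52 for 5 endothelial markers. The part of these differences in the serpin results was not tested.

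Serpin transcripts made up 0.0465% to 0.676% of all FPKM (fragment counts scaled by the authors for transcript length and library size, so that levels can be compared between genes). Their summed level was 2603 and 2151 FPKM in HepG2 WT (replicates 1 and 2, the order used throughout), 2061 and 1583 in HepG2 SR, 179 and 816 in Huh7 WT and 295 and 2229 in Huh7 SR. The 2 Huh7 replicate 1 libraries were the lowest, and Huh7 SR replicate 2 lay within the HepG2 range. In bulk RNA, fewer cells making a transcript and less of it per cell cannot be told apart. In all, 22 serpins reached 1 FPKM in at least 2 libraries, the filter used for testing, and 11 of them did so in all 8. The other 12 (SERPINA9, SERPINE3, SERPINI2 and 9 of clade B) never exceeded 0.336 FPKM, and SERPINB3, SERPINB10 and SERPINB13 were listed at 0 in every library.

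**Figure D1:**
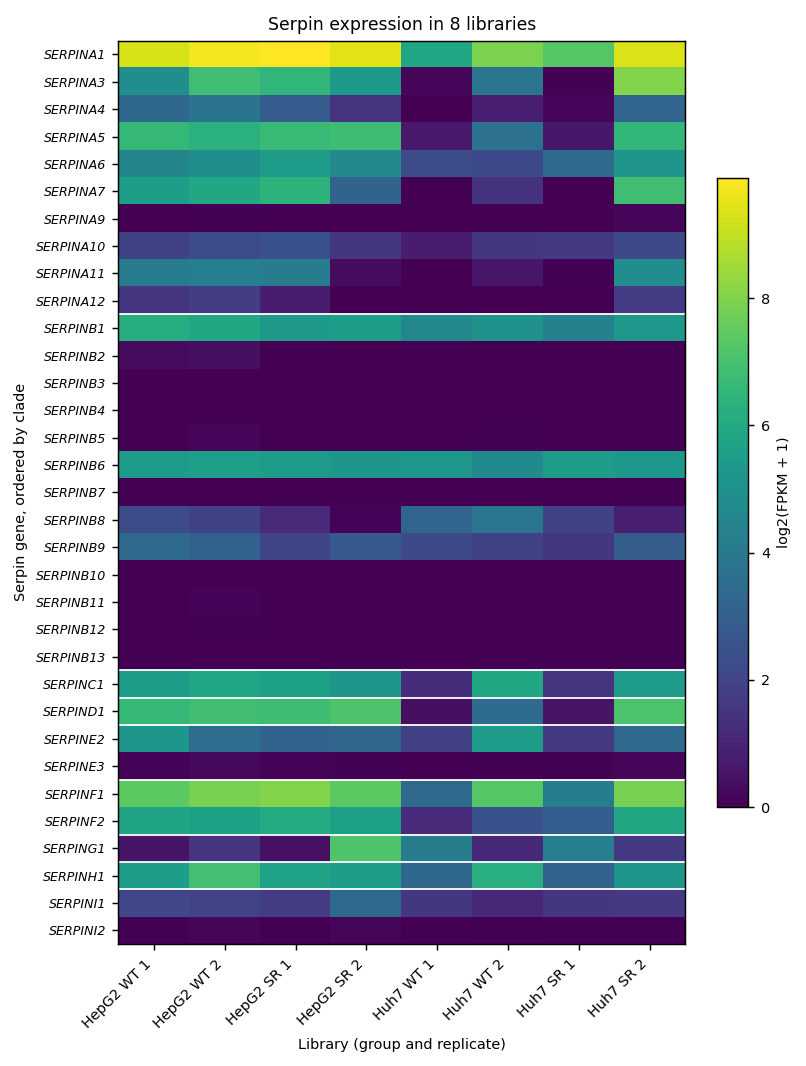
Expression of 33 serpins (rows, by clade, white lines between clades) in the 8 libraries (columns), coloured by log2(FPKM + 1). Most clade A, C, D and F rows are darkest in the Huh7 replicate 1 columns, SERPING1 is bright in HepG2 SR replicate 2, and the 12 untested genes stay dark in every column.

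The clades differed in how evenly they were expressed. Clade A summed to 847 and 1188 FPKM in HepG2 WT, 1301 and 897 in HepG2 SR, 60.4 and 277 in Huh7 WT and 169 and 1201 in Huh7 SR. Clade B stayed between 68.2 and 128 FPKM in the 8 libraries, the narrowest range of any clade relative to its level. SERPINA1 had the highest level of the 34 genes in 7 of the 8 libraries. AGT, outside the 34 and their sums, was at 348 and 28.6 FPKM in Huh7 WT and 372 and 232 in Huh7 SR. It was thus above SERPINA1 in the replicate 1 library of either Huh7 group. Within clade B, the 4 tested genes took a larger share of the total of the 34 where the secreted genes among the 34 were low. SERPINB6 made up 21.1% of that total in Huh7 WT replicate 1 and 14.9% in Huh7 SR replicate 1. In the other 6 libraries its share was 1.67% to 3.09%, while its FPKM values overlapped with those of the first 2.

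In clade A, 9 of the 10 genes lie in 1 cluster on chromosome 14 (94280455 to 94624055, GRCh38), a span of 344 kb that reads SERPINA10, SERPINA6, SERPINA1, SERPINA11, SERPINA9 and SERPINA12 on the minus strand, then SERPINA4, SERPINA5 and SERPINA3 on the plus strand. SERPINA1, alpha-1-antitrypsin, the plasma inhibitor of neutrophil elastase, was at 625 and 868 FPKM in HepG2 WT, 950 and 710 in HepG2 SR, 54.9 and 243 in Huh7 WT and 157 and 652 in Huh7 SR. In each Huh7 pair of equal replicate number the SR library was the higher, while the WT and SR ranges overlapped. SERPINA3, alpha-1-antichymotrypsin, an acute-phase inhibitor of chymotrypsin-like proteases, was at 27.6 and 115 FPKM in HepG2 WT, 91.2 and 38.3 in HepG2 SR, 0.086 and 13.9 in Huh7 WT and 0.040 and 266 in Huh7 SR. Its highest and its lowest value were thus the 2 libraries of 1 group.

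SERPINA5, protein C inhibitor, was at 96.0 and 79.1 FPKM in HepG2 WT, 105 and 111 in HepG2 SR, 0.581 and 12.1 in Huh7 WT and 0.544 and 91.6 in Huh7 SR. The gene was the only tested serpin with both HepG2 SR libraries above both HepG2 WT libraries (18.1% of all genes tested did so). SERPINA4, kallistatin, an inhibitor of tissue kallikrein, was at 9.22 and 12.9 FPKM in HepG2 WT, 6.38 and 1.91 in HepG2 SR, 0 and 0.796 in Huh7 WT and 0.108 and 8.47 in Huh7 SR. Its annotated extent overlaps SERPINA5 on the same strand, so that reads could be assigned to either, and the counting rule is not given in the sources used here. SERPINA10, the inhibitor of factor Xa that acts with protein Z, was low throughout, at 2.80 and 3.83 FPKM in HepG2 WT, 4.68 and 1.92 in HepG2 SR, 0.686 and 2.03 in Huh7 WT and 2.19 and 3.56 in Huh7 SR, and both Huh7 SR libraries lay above both Huh7 WT libraries.

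The hormone carriers followed different patterns. SERPINA6, corticosteroid-binding globulin, was at 21.5 and 29.5 FPKM in HepG2 WT, 42.6 and 25.7 in HepG2 SR, 4.11 and 3.497 in Huh7 WT and 9.52 and 34.4 in Huh7 SR. The Huh7 groups did not overlap and the HepG2 groups did. SERPINA7, thyroxine-binding globulin on the X chromosome, was at 45.4 and 59.4 FPKM in HepG2 WT, 84.3 and 7.93 in HepG2 SR, 0 and 1.76 in Huh7 WT and 0 and 115 in Huh7 SR. The highest value and a listed 0 were again found in the same group, Huh7 SR.

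SERPINA11 and SERPINA12 (vaspin, an adipokine that inhibits a kallikrein) were lowest in HepG2 SR replicate 2 among the HepG2 libraries. SERPINA11 was at 17.3 and 18.5 FPKM in HepG2 WT, 17.3 and 0.268 in HepG2 SR, 0 and 0.523 in Huh7 WT and 0.054 and 27.5 in Huh7 SR. HepG2 SR replicate 2 thus had 0.268 FPKM of SERPINA11 beside 710 FPKM of SERPINA1, the gene next to it in the member order. SERPINA12 was at 1.84 and 2.47 FPKM in HepG2 WT, 0.667 and 0 in HepG2 SR, 0 in both Huh7 WT libraries, and 0.011 and 2.33 in Huh7 SR. Both HepG2 SR libraries were below both HepG2 WT libraries, and both Huh7 SR libraries were above the Huh7 WT libraries.

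**Figure D2:**
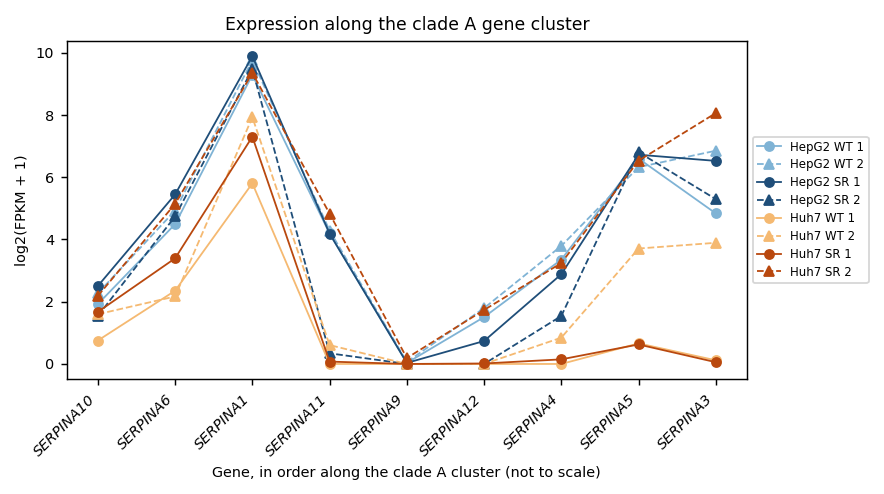
Level, as log2(FPKM + 1), of the 9 clade A genes of the chromosome 14 cluster in gene order (spacing not to scale), 1 line per library. The Huh7 replicate 1 lines drop to near 0 from SERPINA11 onward while SERPINA1 stays at 54.9 and 157 FPKM, and HepG2 SR replicate 2 drops at SERPINA11 and SERPINA12 and returns to the other HepG2 libraries at SERPINA5.

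Among the inhibitors of clotting enzymes, SERPINC1, antithrombin, the heparin-dependent inhibitor of thrombin and factor Xa, was at 44.5 and 56.3 FPKM in HepG2 WT, 48.8 and 36.3 in HepG2 SR, 1.47 and 57.9 in Huh7 WT and 1.87 and 43.6 in Huh7 SR. The values fell by replicate number in Huh7 and not by WT or SR. SERPIND1, heparin cofactor II, was at 95.8 and 116 FPKM in HepG2 WT, 112 and 137 in HepG2 SR, 0.330 and 9.91 in Huh7 WT and 0.439 and 134 in Huh7 SR. Only Huh7 SR replicate 2 of the Huh7 libraries reached the HepG2 range. SERPIND1 overlaps PI4KA on the opposite strand, and PI4KA was at 10.6 to 18.7 FPKM in the 8 libraries.

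In fibrinolysis, SERPINE2, protease nexin 1, was at 36.0 and 11.1 FPKM in HepG2 WT, 7.86 and 8.50 in HepG2 SR, 2.71 and 41.9 in Huh7 WT and 2.08 and 9.32 in Huh7 SR, and both HepG2 SR libraries lay below both HepG2 WT libraries. SERPINF2, alpha-2-antiplasmin, the main inhibitor of plasmin, was at 53.4 and 49.7 FPKM in HepG2 WT, 67.0 and 48.3 in HepG2 SR, 1.31 and 4.59 in Huh7 WT and 6.73 and 59.5 in Huh7 SR. Both Huh7 SR libraries were above both Huh7 WT libraries.

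SERPINF1 (PEDF), an anti-angiogenic factor that lies beside SERPINF2 on chromosome 17, was at 169 and 235 FPKM in HepG2 WT, 268 and 167 in HepG2 SR, 9.76 and 155 in Huh7 WT and 16.8 and 232 in Huh7 SR. Its groups overlapped in both lines. SERPING1, the C1 inhibitor, which restrains the first complement proteases and plasma kallikrein, was at 0.465 and 1.79 FPKM in HepG2 WT, 0.362 and 144 in HepG2 SR, 17.5 and 1.21 in Huh7 WT and 17.6 and 2.13 in Huh7 SR. Its 3 highest values were those of the 3 libraries set apart. SERPINH1, the collagen chaperone HSP47, was at 45.6 and 121 FPKM in HepG2 WT, 50.5 and 46.1 in HepG2 SR, 9.08 and 74.7 in Huh7 WT and 7.60 and 36.2 in Huh7 SR, with the WT replicate 2 library the highest in each line. SERPINI1, neuroserpin, an inhibitor of tissue plasminogen activator, was at 3.26 and 3.01 FPKM in HepG2 WT, 2.35 and 9.79 in HepG2 SR, 1.93 and 1.12 in Huh7 WT and 1.93 and 2.08 in Huh7 SR. All 4 Huh7 values were below all 4 HepG2 values, which held for 1.69% of all genes tested and for 1 other serpin, SERPINB1. No serpin had all its Huh7 values above all its HepG2 values (2.12% of all genes).

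Clade B divides between chromosome 6, with 3 genes, and chromosome 18, with 10. All 3 on chromosome 6 were expressed in every library, whereas on chromosome 18 only SERPINB8 passed the filter and the other 9 stayed at or below 0.336 FPKM. SERPINB1, an inhibitor of neutrophil serine proteases, was at 70.9 and 58.0 FPKM in HepG2 WT, 40.0 and 45.5 in HepG2 SR, 23.5 and 33.1 in Huh7 WT and 19.4 and 37.2 in Huh7 SR. All of its Huh7 values were below all of its HepG2 values. SERPINB6, an intracellular inhibitor that can bind cathepsin G, was at 43.5 and 47.5 FPKM in HepG2 WT, 42.7 and 36.2 in HepG2 SR, 37.919 and 25.2 in Huh7 WT and 44.0 and 37.935 in Huh7 SR, the most even profile of the tested members. SERPINB9, the inhibitor of granzyme B, was at 9.64 and 7.37 FPKM in HepG2 WT, 3.16 and 5.57 in HepG2 SR, 3.53 and 2.92 in Huh7 WT and 1.93 and 6.48 in Huh7 SR, lower in both HepG2 SR than in both HepG2 WT libraries.

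SERPINB8, an intracellular serpin known to inhibit the proprotein convertase furin, was at 3.88 and 2.88 FPKM in HepG2 WT, 1.32 and 0.062 in HepG2 SR, 8.41 and 13.8 in Huh7 WT and 2.85 and 0.780 in Huh7 SR. All 4 SR values lay below all 4 WT values, the closest pair being 2.85 and 2.88. Of all genes tested, 2.17% had all SR libraries below all WT libraries, and SERPINB8 was the only one of the 22 serpins among them. No serpin had all SR values above all WT values (1.52% of genes). The SERPINB8 extent overlaps HMSD on the same strand, and HMSD did not exceed 0.942 FPKM in any library. In the promoter run shown above, this gene has 2 AP-1-type words in capitals. The letters TATAAA, left in lower case, lie between them and not close to the transcript start.

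**Figure D3:**
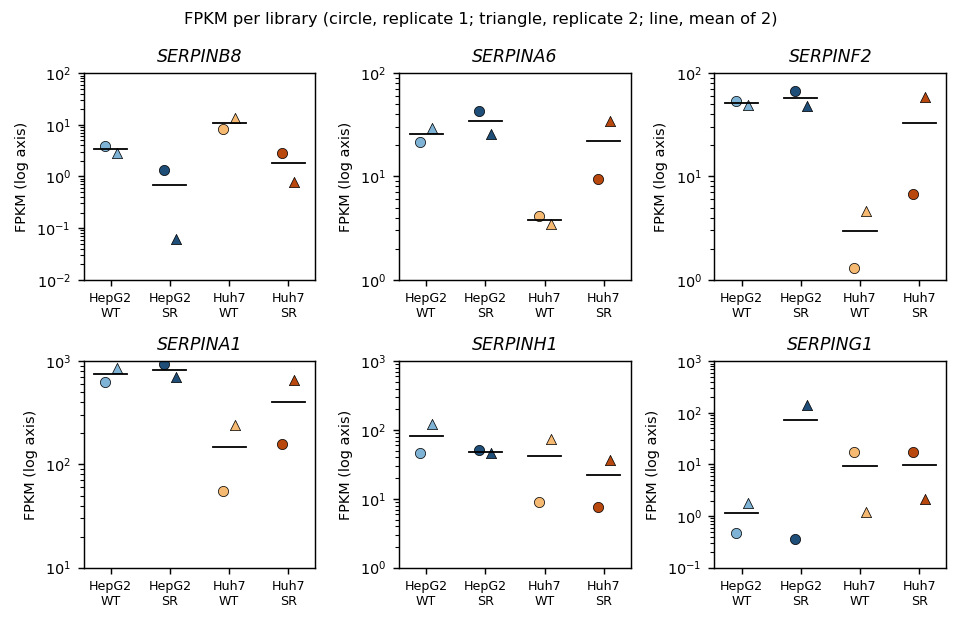
FPKM (log axis, scaled per panel) of 6 serpins in each library by group, with circles for replicate 1, triangles for replicate 2 and a line at the mean of the 2. SERPINB8 is lower in SR than in WT in both lines, SERPINA6 and SERPINF2 separate only in Huh7, SERPINH1 is highest in the WT replicate 2 library of each line, and for SERPING1 the HepG2 SR replicates lie far apart.

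The first question of the design was what differed between SR and WT within HepG2. SERPINB8 was lower in HepG2 SR and was the only serpin past the thresholds taken from the study's methods (unadjusted p under 0.05 and a log2 fold change of at least 0.5 in size). Fold changes and calls are those of limma on log2(FPKM + 1), a scale that understates the change of low genes. The SERPINB8 fold change was -1.47 (log2, SE 0.57, limma adjusted p = 0.956), and 1.27% of all 15173 genes tested were called lower, 0.877% higher and 2.14% in either direction. Benjamini-Hochberg adjustment over all genes left no gene under 0.05 in this contrast, against 325 genes at an unadjusted p under 0.05. An exact permutation test of 2 libraries against 2 cannot give a two-sided p below 0.333, so none was used within a line. The median over the 22 serpins was -0.22, with 9 above 0, beside -0.03 and 47.6% for all genes. It came to -0.07 without SR replicate 2 and to -0.50, with 5 above 0, without SR replicate 1, and 11 were above 0 without WT replicate 2.

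Other large fold changes in HepG2 did not pass the unadjusted threshold. SERPING1 differed by 2.80 (log2, SE 2.16) and SERPINA11 by -1.97 (SE 1.69). For both genes the difference lay in HepG2 SR replicate 2. Without that library SERPING1 turned to -0.57, SERPINA11 came to -0.05, and SERPINB8 came to -0.91 and lost its call. The SERPINB8 call was also lost without either HepG2 WT library. Without the 3 libraries set apart SERPINB8 was at -0.91, and SERPINA12 and SERPINB9 were also lower in SR. There the spread came from the HepG2 WT pair alone and 3 of the groups were single libraries assumed to vary like it. In the replicate 1 pair SERPINA3 was at least 1 higher in SR on the log2 scale (3.96% of all genes were). In that pair 4 serpins were at least 1 lower (3.61%), SERPINB8, SERPINB9 and SERPINE2 among them. In the replicate 2 pair 8 serpins were at least 1 lower (16.7%). SERPING1 was higher there by 5.70 and SERPINI1 by 1.43, and no share of all genes past that fold upwards is given for this pair. Above 0 in the replicate 2 pair were 4 of the 22 serpins and 46.9% of all genes. Both HepG2 SR libraries were below both HepG2 WT libraries for 9 of the 22 serpins, where 20.1% of all genes were.

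In Huh7, SERPINA6 and SERPINF2 were higher and SERPINB8 was lower in SR than in WT, so that 3 of the 22 serpins were called where 1.87% of all genes were (0.942% higher and 0.923% lower). The SERPINA6 fold change was 2.01 (log2, SE 0.60), that of SERPINF2 was 2.59 (SE 0.93), and that of SERPINB8 was -2.17 (SE 0.57). No gene was called after adjustment (limma adjusted p = 0.99996 for each of the 3), against 283 genes at an unadjusted p under 0.05. All 9 tested clade A genes had a fold change above 0, from 0.76 to 2.69, and over the 22 serpins the median was 0.82 with 17 above 0, beside -0.05 and 44.7% for all genes. Those directions depended in part on Huh7 SR replicate 2. Without it, SR replicate 1 was set against both WT libraries. The median then turned to -0.51 with 8 above 0, and 4 of the 9 clade A genes were above 0. The median was 2.19 without Huh7 SR replicate 1, 1.81 without WT replicate 2 and 0.34 without WT replicate 1. Between the replicate 1 libraries alone 14 of the 22 serpins were above 0, with a median of 0.05, beside 49.9% of all genes. Between the replicate 2 libraries 18 were, with a median of 1.18, beside 41.3%. SERPINA7 at 2.69 (SE 2.11) and SERPINA11 at 2.15 (SE 1.69) had large changes that did not pass.

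The Huh7 replicate pairs differed in how many serpins moved. Between the replicate 1 libraries SERPINA1, SERPINA6 and SERPINF2 were at least 1 higher in SR on the log2 scale (2.91% of all genes were) and SERPINB8 was at least 1 lower (2.23%). Between the replicate 2 libraries 11 serpins were at least 1 higher (7.69%) and SERPINB8, SERPINE2 and SERPINH1 were at least 1 lower (7.94%). SERPINA1, SERPINA6, SERPINF2 and SERPINB8 thus passed that fold in both pairs, with SERPINA1 at 1.498 and 1.421 and SERPINB8 at -1.29 and -3.05. Both Huh7 SR libraries lay above both Huh7 WT libraries for 6 serpins, SERPINA6, SERPINA10, SERPINA12, SERPINB6, SERPINF2 and SERPINI1 (9.06% of all genes), and below them for SERPINB8 alone (12.9%). The margin was small for SERPINI1, SERPINB6 and SERPINA12. Their nearest WT and SR values were 1.929 and 1.931 FPKM, 37.919 and 37.935 FPKM, and 0 and 0.011 FPKM. Replicates of 1 group differed as well. In the Huh7 SR group 16 serpins were at least 1 higher (15.5% of all genes) and 2 at least 1 lower (15.9%) in replicate 2 than in replicate 1, and in the Huh7 WT group 11 were higher (17.7%) and 1 lower (15.3%). In HepG2 SR 2 were higher (10.8%) and 6 lower (15.0%), and in HepG2 WT 2 were higher (3.53%) and 2 lower (2.77%).

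Leaving out single libraries moved the Huh7 calls. Without Huh7 SR replicate 2 only SERPINB8 of the serpins was called, SERPINA6 came to 1.13, SERPINF2 to 1.10, and SERPINA7 and SERPINA11 turned to -0.73 and -0.23. Without Huh7 SR replicate 1 SERPINF2 came to 4.07, and more serpins, like more of all genes, were called. SERPINF2 also lost its call without Huh7 WT replicate 1, with no filter on low genes and with Huh7 fitted alone. The SERPINB8 fold change stayed between -2.73 and -1.61 and called without any 1 of the 8 libraries. Without the 3 libraries set apart, each Huh7 group was a single library and the spread came from the HepG2 WT pair. SERPINB8 was then at -3.05, SERPINA6 at 2.98, SERPINF2 at 3.44 and SERPINA7 at 5.39.

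**Figure D4:**
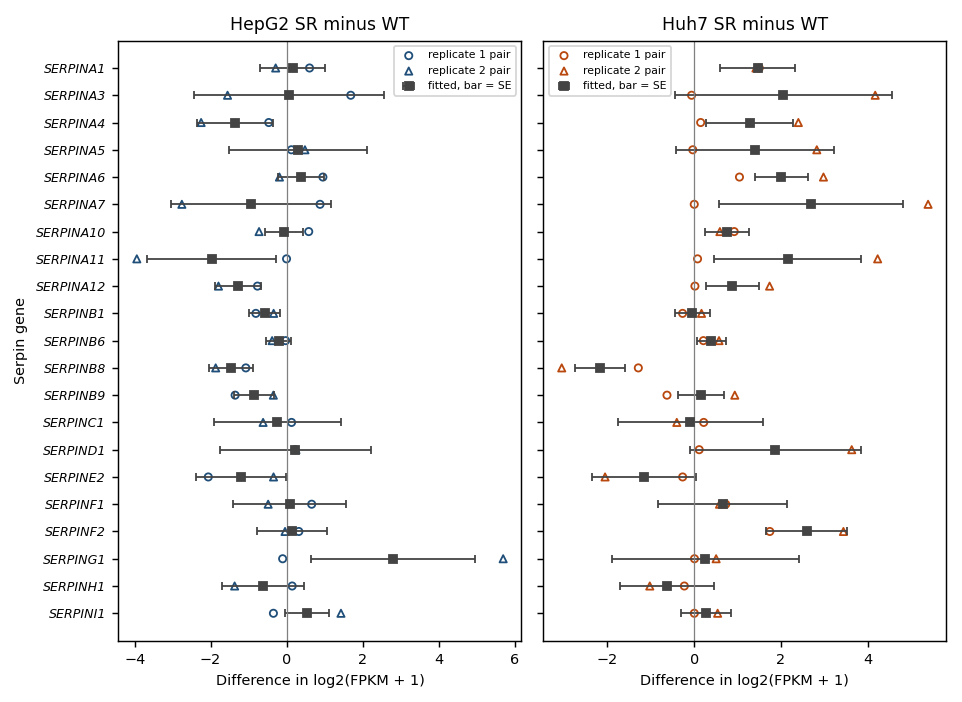
SR minus WT difference in log2(FPKM + 1) for 21 of the 22 tested serpins in HepG2 (left) and Huh7 (right). Squares with bars are the limma fold change and its SE, open circles and triangles the differences of the replicate 1 and replicate 2 pairs. SERPINB8 lies below 0 in both panels and in every pair, while most clade A genes in Huh7 have a replicate 2 pair far to the right of the replicate 1 pair.

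Averaged over the 2 cell lines, SERPINB8 was lower in SR with a fold change of -1.82 (log2, SE 0.40) and SERPINA6 was higher with 1.20 (SE 0.42), 2 of 22 serpins where 3.93% of all genes were called (2.03% lower and 1.90% higher). The median over the 22 was 0.22, with 13 above 0, beside -0.05 and 44.9% for all genes. It turned to -0.63, with 7 above 0, without Huh7 SR replicate 2, and came to 0.78, with 16 above 0, without Huh7 SR replicate 1. It was 0.05 to 0.42 without each of 5 other libraries and 0.01 without Huh7 WT replicate 1. No gene passed after adjustment (limma adjusted p = 0.998 for both), against 597 genes at an unadjusted p under 0.05. SERPINB8 kept its call without any single library, between -2.10 and -1.54. SERPINA6 lost its call without HepG2 WT replicate 1, HepG2 SR replicate 1, Huh7 WT replicate 2 or Huh7 SR replicate 2, coming to 0.76 without the last. Without the 3 libraries set apart SERPINB8 was at -1.98 and SERPINA6 at 1.86.

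Between cell lines, 7 serpins were lower in Huh7 than in HepG2 and SERPINB8 was higher, so that 8 of 22 were called where 4.90% of all genes were (2.87% lower and 2.04% higher). Most of the 7 are secreted plasma proteins: SERPINA1 at -2.01 (log2, SE 0.61), SERPINA4 at -1.83 (SE 0.71), SERPINA5 at -3.73 (SE 1.29), SERPINA6 at -1.64 (SE 0.42), SERPIND1 at -3.98 (SE 1.40) and SERPINF2 at -2.65 (SE 0.66). The other was the intracellular SERPINB1 at -0.91 (SE 0.29), and SERPINB8 was at 1.09 (SE 0.40). SERPINA7 at -3.18 (SE 1.49) and SERPINA3 at -2.85 (SE 1.76) did not pass. Without Huh7 SR replicate 2 both were called, at -4.89 and -4.85, and without Huh7 SR replicate 1 they came to -1.46 and -0.84. The median over the 22 serpins was -1.73, with 2 above 0, beside 0.03 and 52.3% over all genes. The median was -0.85 without Huh7 SR replicate 1, -0.92 without Huh7 WT replicate 1 and -0.45, with 4 above 0, without the 3 libraries set apart. No gene was called after adjustment (limma adjusted p = 0.813 for each of the 8), against 744 at an unadjusted p under 0.05.

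Only SERPINA1, SERPINA6 and SERPINF2 of these 8 kept their calls without each of the 8 libraries in turn. SERPINA4, SERPINA5, SERPINB8 and SERPIND1 each lost theirs in 5 of the 8 cases, and SERPINB1 in 2, without HepG2 WT replicate 1 or Huh7 WT replicate 1. Without Huh7 SR replicate 1, SERPINA4 came to -1.06, SERPINA5 to -2.25 and SERPIND1 to -2.35. More serpins, and more of all genes, were called without Huh7 SR replicate 2. Fewer of both were called without either HepG2 WT library or without Huh7 WT replicate 1. Without the 3 libraries set apart SERPINA1 was at -1.07, SERPINA5 at -1.47, SERPIND1 at -1.51 and SERPINF2 at -1.70, while SERPINB1 was no longer called. Huh7 SR replicate 2 differed from HepG2 SR replicate 1 by at least 1 on the log2 scale in 3 serpins, all higher (1.46% of all genes), and in none downwards (0.824%).

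The last comparison asked whether SR minus WT differed between the lines. SERPINA12 was the only serpin called, with a difference of 2.16 (log2, Huh7 less HepG2, SE 0.86, limma adjusted p = 0.99981), where 0.606% of all genes were called (0.369% higher and 0.237% lower). Its level did not exceed 2.47 FPKM in any library, and the call was lost with a pseudocount of 0.1, with no filter, with the replicate block and in 6 of the 8 cases that leave out 1 library, coming to 1.30 without Huh7 SR replicate 2. SERPINB8, called in both lines, had a difference of -0.70 (SE 0.81) over the 8 libraries. For SERPINA6 and SERPINF2, called in Huh7 alone, the difference between lines was 1.63 (SE 0.85) and 2.45 (SE 1.31) and was not called. Without Huh7 SR replicate 1 both were called, SERPINA6 at 2.50 and SERPINF2 at 3.93. Without the 3 libraries set apart they were called at 2.24 and 3.06, as was SERPINB8 at -2.14. For the 22 serpins the median difference was 1.05, with 18 above 0, beside -0.04 for all genes. It was 2.37 without Huh7 SR replicate 1 and 0.14, with 12 above 0, without Huh7 SR replicate 2. With the first or the second Huh7 WT library left out it was 0.26 or 2.26. No gene passed after adjustment, against 92 at an unadjusted p under 0.05.

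The proteases and partners of the serpins were read from lists of genes, with calls at the same unadjusted threshold. Of the 6 tested coagulation proteases, 4 fibrinolysis genes, 4 first-step complement proteases, 13 collagen and collagen-folding genes, 7 cathepsins and granule proteases and 6 trypsin-like proteases, none was called between SR and WT in either line. Of 19 tested inhibitors outside the family, ITIH2, a chain of the inter-alpha inhibitors, was higher in Huh7 SR at 1.63 (log2, SE 0.61). In that contrast 0.942% of all genes were called higher. Of the 6 tested clearance receptors, 2 were lower in Huh7 SR, VLDLR among them at -1.16 (SE 0.45), where 0.923% of all genes were, and 0 were called in HepG2.

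Between cell lines, 1 of 6 coagulation proteases (F11) and 1 of 4 complement proteases (C1S) were lower in Huh7. Of the cathepsin list, CTSL and CTSS were higher and CTSD was lower, and of the other inhibitors ITIH2 and TIMP3 were lower. Of 5 tested hormone-carrying and renin partners, ALB and TTR were lower, and 6 of the 12 hepatocyte markers were lower with 0 higher, where 2.87% of all genes were lower and 2.04% higher. Of the epithelial, mesenchymal, blood and endothelial marker lists, CDH2 and CD14 were the only genes called, both lower in Huh7, and 0 were called between SR and WT. Of the hepatocyte markers APOC3, TF and HNF4A were higher in Huh7 SR than in Huh7 WT and 0 were called in HepG2. The summed hepatocyte markers ran from 1852 to 2590 FPKM in Huh7 WT and Huh7 SR replicate 1 and from 5083 to 9338 in Huh7 SR replicate 2 and HepG2. In the Huh7 replicate 1 libraries most of that sum was fibrinogen, with FGA, FGB and FGG together at 2021 FPKM in WT and 1861 in SR, against 4.29 in Huh7 WT replicate 2. The other 9 markers summed to 306 to 1848 FPKM in Huh7 WT and Huh7 SR replicate 1 and to 4965 to 7259 in HepG2 and Huh7 SR replicate 2. These 2 sets differ from the split by libraries set apart. Huh7 WT replicate 2 is in the first set and HepG2 SR replicate 2 in the second. The clade A sum was 60.4 to 277 FPKM in the first set of libraries and 847 to 1301 in the second. The part of hepatocyte gene expression as a whole in the serpin differences was not tested.

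Among 10 transcription factors known to act on liver promoters, CEBPA was higher in SR in both lines, at 1.33 (log2, SE 0.44) in HepG2 and 1.32 (SE 0.44) in Huh7. In Huh7 SR, HNF4A was higher at 0.96 (SE 0.40) and CEBPB, an acute-phase factor, was lower at -1.42 (SE 0.41). Of all genes, 0.877% were called higher in HepG2 SR, and 0.942% higher and 0.923% lower in Huh7 SR.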

How the data were processed

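RNA-seq was analysed from the deposited FPKM values, which the authors calculated per gene for each of the 8 libraries (2 per group, 4 groups). Per the labels, poly(A) RNA was enriched on oligo(dT) beads, and the submitters' processing notes name fastp 0.20.0 and GRCh38. The aligner, quantifier, annotation and use of strand are not given in the sources used here. No read totals were used, so depth is unknown and no counting interval is given.

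Ensembl IDs were matched to symbols for 62666 of 63241 genes, and positions were taken from GENCODE release 29. The members and 15 lists of partner and marker genes were chosen with earlier results of these data known. Genes with at least 1 FPKM in at least 2 libraries (15173) were tested with limma 3.58.1 (R 4.3.3; trended empirical Bayes) on log2(FPKM + 1), as 1 model of 4 group means with 4 residual degrees of freedom and Benjamini-Hochberg adjustment over all genes tested. The study's methods name edgeR, which needs counts and was not run here. Calls required an unadjusted p under 0.05 and a log2 fold change past 0.5 in size, the thresholds of the study. The script was tested on simulated data. The tested members were named with their levels, except that results of certain genes are not reported here. Full statistics were given for called members and for the 4 largest fold changes in each cell line and between lines, and at most 3 called genes of a list were named. Promoters were those of RefSeq (GRCh38.p14). Alternatives were another pseudocount, other filters, rescaling to TPM, quantile normalization, each line alone, a replicate block, no trend, adjusted p, and each library left out; leaving out the 3 libraries set apart was added after seeing the data.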

Additional observations from a re-analysis of the deposited data

Results flagged for a closer look

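SERPINA12 drew attention because its SR minus WT difference was not the same in the 2 lines, 2.16 higher on the log2 scale in Huh7 than in HepG2 (called at the unadjusted limma threshold for the interaction, limma adjusted p = 0.99981). The call was lost with the replicate block, with a pseudocount of 0.1 and with no filter. Its values were 1.84 and 2.47 FPKM in HepG2 WT against 0.667 and 0 in HepG2 SR, and 0 in both Huh7 WT libraries against 0.011 and 2.33 in Huh7 SR. SERPINB6 drew attention because both SR libraries lay below both WT libraries in HepG2 and above them in Huh7, with a difference of 0.60 (log2) that did not pass the unadjusted threshold of the limma interaction. The nearest Huh7 values of SERPINB6 were 37.919 FPKM in WT replicate 1 and 37.935 in SR replicate 2. With 2 libraries in each group, outlying samples within a group could not be assessed.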

How the results depend on the processing

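Of 364 values of the 21 named fold changes under alternatives, 288 kept their direction and side of the threshold, 64 lost the call, 8 gained one and 4 turned in direction. Some alternatives, such as leaving out a library of the other line or adjusting p, cannot alter a fold change within a line. The tally is therefore not a measure of stability. SERPING1 in HepG2 turned to -0.57 without HepG2 SR replicate 2 and to -0.57 without the 3 libraries set apart, and in Huh7, without SR replicate 2, SERPINA11 turned to -0.23 and SERPINA7 to -0.73. With other single libraries left out these reached 6.16, 4.53 and 6.12. At an adjusted p under 0.05 the count of called serpins was 0 in every comparison. For HepG2 SR against WT the count of 1 became 0 with no filter, 3 with each line fitted alone, 4 without the 3 libraries, and 0 to 3 with 1 library left out. For Huh7 SR against WT the count of 3 became 2 with no filter and 2 with each line fitted alone, SERPINF2 being lost in both, 12 without the 3 libraries and 1 to 11 with 1 library left out. For the average over lines the count of 2 became 11 and 1 to 7, respectively. For Huh7 against HepG2 the count of 8 became 5 with no filter and 3 to 16 with 1 library left out. For the difference between lines the count of 1 became 0 with a pseudocount of 0.1, 0 with no filter, 12 without the 3 libraries and 0 to 11 with 1 library left out.

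With 1 library left out, the lone library of its group is assumed to vary like the other groups. Without the 3, only the HepG2 WT pair gives a spread. The cause of these changes was not tested. The deviations of same-numbered libraries correlated at 0.125 between the HepG2 groups, at 0.796 between the Huh7 groups and at -0.562 to -0.042 between lines. The labels tie the numbers to no shared culture or day, and the main test took the libraries as unpaired. With the replicate block the difference between lines had 0 called serpins and Huh7 against HepG2 had 9, while the other counts stayed at 1, 3 and 2. The block was 1 term shared by both lines, so these counts cannot decide whether pairing within Huh7 alone would matter. FPKM without read totals limit what can be said of genes near 0.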
